A study of Homo sapiens with 4 samples.

Results

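Genes of the mitochondrial respiratory chain and ATP synthase were examined in RWP-1 cells, an established human pancreatic cancer line, with and without rGAL1. They were chosen by gene symbol: the nuclear-encoded subunits of complexes I to V by their symbol prefixes, with 1 pseudogene (UQCRBP1) left out and the brightest probe set taken for each gene. The rule found 27 of the 14884 genes with a symbol here. Of these, 25 are protein-coding: 5 subunits of complex III, 17 of complex IV and 3 proteins of complex V. The other 2, NDUFA6-DT and NDUFB2-AS1, are long noncoding RNAs named after complex I neighbours. No protein-coding gene of complex I or complex II carried a symbol in the probe annotation, so these complexes are not analysed here, and the genes described are above all those of cytochrome c oxidase. In RefSeq (GRCh38.p14), 87 protein-coding genes match the same symbol rule, 37 by a complex I symbol, 4 by a complex II symbol, 9 for complex III, 17 for complex IV and 20 for complex V; the 25 members are all of the complex IV genes, 5 of the 9 for complex III and 3 of the 20 for complex V.

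Total RNA from 2 groups was hybridised to 4 single-channel whole-transcript arrays. Ctrl cells had no treatment (n = 2 arrays) and rGAL1 cells were treated with rGAL1, read here as recombinant galectin-1, a lectin released by cells that recognises galactose on glycans (n = 2 arrays); the labels give no dose, duration or vehicle. All samples are 1 cell line, and no label tells whether replicate arrays stem from separate cultures, so p-values measure the spread between arrays, which may be technical. The array rGAL1 2 has conflicting labels: its title and source name say rGAL1 and its treatment entry says control. It was analysed as rGAL1, and values without it are given below. In bulk RNA, fewer cells with a transcript and less of it per cell cannot be told apart.

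The respiratory chain passes electrons from NADH and succinate through ubiquinone, complex III (the cytochrome bc1 complex), cytochrome c and complex IV (cytochrome c oxidase) to oxygen. Complexes I, III and IV pump protons across the inner mitochondrial membrane, and complex V (ATP synthase) uses the return flow to make ATP. Catalytic subunits of complexes III and IV are partly encoded in mitochondrial DNA, while the genes described here are nuclear and encode structural, regulatory and accessory subunits. Several complex IV subunits exist as a widely expressed form and a form restricted to muscle, lung or testis.

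The deposited values are log2 expression per probe set, with array medians between 4.69 and 4.72. Across the 53617 probe sets, the 2 Ctrl arrays differed from each other with an SD of 0.30, the 2 rGAL1 arrays with 0.29, and arrays of unlike groups with 0.27 to 0.30. Of the epithelial and ductal markers, 6 of 8 had a symbol, and KRT18 (12.4), SOX9 (10.3), EPCAM (9.88), KRT19 (9.42) and KRT8 (7.74) were bright in Ctrl, with KRT7 at 5.36. The fibroblast markers DCN and LUM (2.91 and 3.37 in Ctrl) lay below the dim level, which is the median of all probe set means, 4.70. All 3 measured endothelial markers (PECAM1, VWF and KDR) had Ctrl means between 4.19 and 4.85, and the leukocyte marker CD14 was at 4.94; CD68, a lysosomal protein, was at 7.79 in Ctrl and 8.18 in rGAL1. The 3 measured acinar markers had Ctrl means between 4.42 and 5.02 and the 3 endocrine ones between 3.78 and 5.39; 1 acinar marker and, of the leukocyte ones, CD68 were higher in rGAL1 at an unadjusted p under 0.05, and 0 were called after adjustment (limma). The part of these differences in the values below was not tested.

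None of the 27 members was called between rGAL1 and Ctrl at an adjusted p under 0.05 (limma, Benjamini-Hochberg over all probe sets), against 0% of all named genes. At an unadjusted p under 0.05, 0 members were lower and 0 higher, where 1.57% of named genes were lower and 1.42% higher. The median difference of the 25 protein-coding members, rGAL1 minus Ctrl, was -0.0054 log2 units, beside 0.0056 over all named genes and 0.0091 over those brighter than the dim level. Without rGAL1 2, the array with conflicting labels, the median was -0.021 over the 25 members, -0.021 in complex IV and -0.014 in complex V. It was -0.052 over the 25 without Ctrl 1, 0.0019 without Ctrl 2 and -0.030 without rGAL1 1. Means were lower in 13 of the 25 and higher in 12. The rGAL1 arrays were both lower than either Ctrl array in 9 of the 25 (36%), a separation seen in 17% of all named genes, and both higher in 4 (16%), against 20.2% of named genes. The median size of a difference, regardless of sign, was 0.084 log2 units for the members and 0.084 for all named genes.

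**Figure D1:**
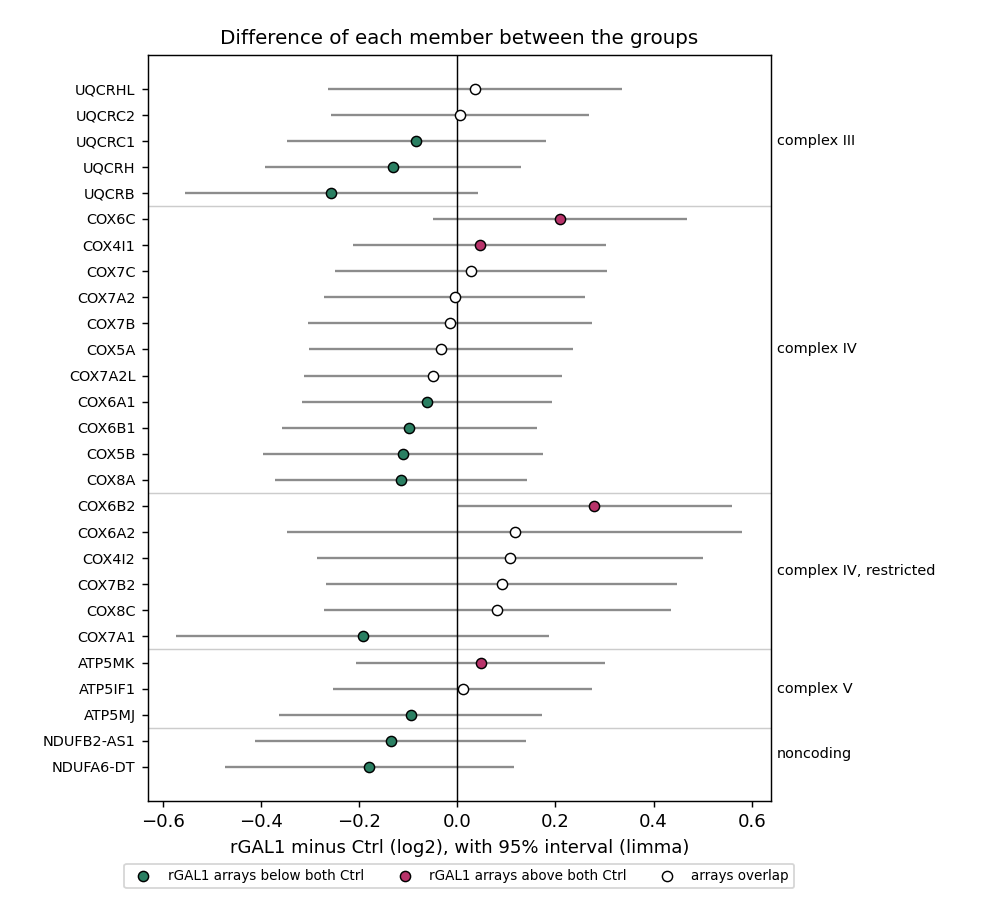
Difference of each member between the groups (rGAL1 minus Ctrl, log2, horizontal axis) with its 95% interval from limma, grouped by complex; filled points mark genes whose arrays did not overlap between the groups. All 27 intervals include 0, the lowest point is UQCRB at -0.26 and the highest COX6B2 at 0.28.

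In complex III, rGAL1 means were lower for 3 of 5 members, each with both rGAL1 arrays below either Ctrl array, a separation that 17% of all named genes also had; 0 of the 5 had both higher, against 20.2%. The median over the 5 was -0.084 log2 units, or 1.06-fold lower, and -0.078 without rGAL1 2. UQCRB, a small subunit near the ubiquinone site, measured 5.58 and 5.74 on the Ctrl arrays and 5.46 and 5.35 on the rGAL1 arrays. It thus had the lowest difference of all members, -0.26 log2 units (SE 0.11, 95% interval -0.56 to 0.042, limma adjusted p = 0.919), and the difference was -0.18 without Ctrl 2 and -0.34 without Ctrl 1.

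UQCRH, the hinge protein that helps cytochrome c dock to complex III, measured 6.85 and 6.78 in Ctrl and 6.69 and 6.68 in rGAL1. The groups did not overlap, and the difference was -0.13 (SE 0.10, 95% interval -0.39 to 0.13). UQCRC1, a core protein related to mitochondrial processing peptidases, measured 8.19 and 8.28 in Ctrl and 8.16 and 8.14 in rGAL1, a difference of -0.084 (SE 0.10), of -0.040 without Ctrl 2 and of -0.13 without Ctrl 1. Its partner UQCRC2, the brightest complex III member, measured 10.31 and 10.30 in Ctrl and 10.35 and 10.27 in rGAL1 and differed by 0.0055 (95% interval -0.26 to 0.27). That sign turned with quantile normalization. UQCRHL, an intronless copy of UQCRH, measured 8.83 and 9.01 in Ctrl and 8.98 and 8.94 in rGAL1; the arrays overlapped. Because the transcripts of UQCRH and UQCRHL are closely alike, each probe set may also report the other gene.

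The 11 widely expressed subunits of complex IV had lower means in 8 and higher means in 3, with a median difference of -0.034 log2 units. The rGAL1 arrays were both lower than either Ctrl array in 4 of them, against 17% of all named genes, and both higher in 2, against 20.2%. COX8A, a small membrane-spanning subunit in its widely expressed form, measured 10.73 and 10.68 in Ctrl and 10.61 and 10.58 in rGAL1. The groups did not overlap, and the difference of -0.11 (SE 0.099, 95% interval -0.37 to 0.14, limma adjusted p = 0.947) stayed between -0.14 and -0.091 when any 1 array was left out. COX6B1, which faces the intermembrane space near the cytochrome c site, measured 7.80 and 7.74 in Ctrl and 7.69 and 7.65 in rGAL1, a difference of -0.098 (SE 0.099). COX5B, a zinc-binding subunit on the matrix side, measured 7.28 and 7.43 in Ctrl and 7.22 and 7.27 in rGAL1. Its difference of -0.11 (SE 0.11) was -0.038 without Ctrl 2 and -0.18 without Ctrl 1. COX6A1, the liver-type form found in most tissues, was by its brighter probe set the brightest member of all. That probe set measured 11.46 and 11.46 in Ctrl and 11.41 and 11.38 in rGAL1, a difference of -0.062 (SE 0.097). Its dimmer probe set measured 3.08 and 3.42 in Ctrl and 2.88 and 3.51 in rGAL1, below the dim level, with overlapping arrays. COX6A1 has 6 pseudogene records under its own symbol in RefSeq, COX5B has 8 and COX6B1 has 7, and their probe sets may also report related sequences. Apart from this brighter set, the members' probe set numbers follow the order of chromosome names. Its number falls between those of COX7C on chromosome 5 and COX7A2 on chromosome 6, while COX6A1 is on chromosome 12. Which sequence the brighter set reports was not tested, so the level and the difference of COX6A1 itself are uncertain. The counts and ranges that include COX6A1 rest on that set.

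COX6C was the widely expressed subunit with the highest difference. It measured 5.84 and 5.81 in Ctrl and 6.06 and 6.00 in rGAL1, so both rGAL1 arrays were higher, by 0.21 log2 units (SE 0.099, 95% interval -0.049 to 0.47, limma adjusted p = 0.919). The arrays numbered 2 differed by 0.20 and those numbered 1 by 0.22. COX6C has 18 pseudogene records under its own symbol in RefSeq, the most of any member, and its probe set may also report related sequences. COX4I1, the form of the ATP-sensing subunit used in most tissues, measured 10.11 and 10.17 in Ctrl and 10.19 and 10.18 in rGAL1, a difference of 0.046 (SE 0.099) with the groups just apart, which was 0.018 without Ctrl 1 and 0.074 without Ctrl 2. The remaining 5 widely expressed subunits overlapped between the groups, at -0.049 for COX7A2L, a factor that joins complexes III and IV in supercomplexes, -0.034 for COX5A, -0.016 for COX7B, -0.0054 for COX7A2 and 0.029 for COX7C. The sign of COX7A2 turned when arrays were centred on their medians (0.0086).

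The 6 tissue-restricted forms of complex IV subunits had a median Ctrl level of 4.98, near the dim level of 4.70, and their levels overlapped those of the other members: COX4I2 (5.93 in Ctrl) was brighter than UQCRB (5.66) and COX6C (5.82). COX7B2 and COX8C, forms known from testis, had means below it. Of the 6, 5 were higher on average after rGAL1 and the median difference was 0.099. The arrays overlapped in 4 of the 6, as they did in 9345 of all 14884 named genes. The standard errors of the 6 were larger (median 0.14 against 0.10 for the widely expressed forms). COX6B2, the testis form of COX6B1, measured 5.42 and 5.32 in Ctrl and 5.70 and 5.60 in rGAL1. Both rGAL1 arrays were higher, by 0.28 log2 units or 1.21-fold (SE 0.11, 95% interval -0.00093 to 0.56, limma adjusted p = 0.919), the highest difference among the members. It stayed between 0.23 and 0.33 when any 1 array was left out.

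COX7A1, the heart and muscle form, measured 4.64 and 4.97 in Ctrl and 4.63 and 4.60 in rGAL1. Both rGAL1 arrays were lower, but Ctrl 1 lay only just above them, and the difference of -0.19 (SE 0.15) was -0.026 without Ctrl 2 and -0.36 without Ctrl 1. COX6A2, the muscle form of COX6A1, measured 4.93 and 5.39 in Ctrl and 5.26 and 5.29 in rGAL1. Ctrl 1 was low, the groups overlapped, and the difference of 0.12 was -0.11 without Ctrl 1. COX4I2, the lung form linked to low oxygen, measured 5.90 and 5.97 in Ctrl and 5.87 and 6.22 in rGAL1. Only rGAL1 2 was high, and the difference of 0.11 was -0.067 without that array. COX7B2 and COX8C differed by 0.090 and 0.082 and likewise turned sign without rGAL1 2 (-0.056) and without rGAL1 1 (-0.060).

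The widely expressed and restricted forms made 6 pairs. COX6B1 and COX6B2 differed by -0.098 and 0.28, COX6A1 and COX6A2 by -0.062 and 0.12, COX7B and COX7B2 by -0.016 and 0.090, and COX8A and COX8C by -0.11 and 0.082, so these pairs had opposite signs. COX7A2 and COX7A1, at -0.0054 and -0.19, and COX4I1 and COX4I2, at 0.046 and 0.11, shared a sign. Of these genes, COX4I2, COX6A2, COX7A2, COX7B, COX7B2 and COX8C turned sign when 1 array was left out. The gap between the members of a pair was not tested.

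**Figure D2:**
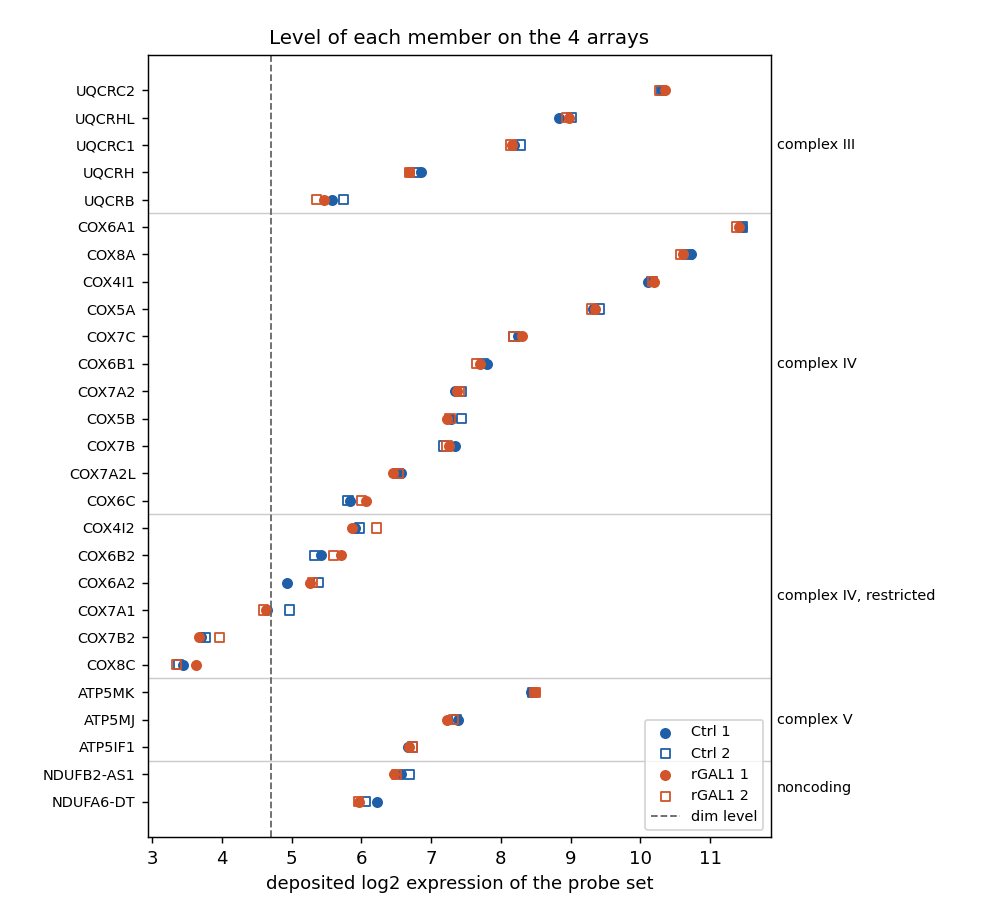
Deposited log2 expression (horizontal axis) of each member's probe set on the 4 arrays, grouped by complex and sorted by mean within a group; the dashed line is the dim level of 4.70. The restricted complex IV forms have Ctrl means between 3.41 and 5.93, and the widely expressed ones between 5.82 and 11.46. The last value is that of the brighter COX6A1 probe set, whose target is uncertain.

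Of complex V, only an inhibitor and small membrane proteins were measured, and no catalytic subunit. ATP5MJ, a small membrane subunit, measured 7.38 and 7.36 in Ctrl and 7.23 and 7.33 in rGAL1. Both rGAL1 arrays were lower, with a difference of -0.095 (SE 0.10, 95% interval -0.36 to 0.17) that was -0.045 without rGAL1 1 and -0.15 without rGAL1 2. ATP5MK, which stabilises dimers of the synthase, measured 8.43 and 8.45 in Ctrl and 8.49 and 8.49 in rGAL1, a difference of 0.048 (SE 0.097) with both rGAL1 arrays higher. ATP5IF1, the protein that blocks ATP hydrolysis by the enzyme running in reverse, measured 6.66 and 6.74 in Ctrl and 6.68 and 6.73 in rGAL1. Its arrays overlapped, and the difference of 0.011 had a 95% interval from -0.25 to 0.28. The median over these 3 genes was 0.011.

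Both noncoding members had both rGAL1 arrays below either Ctrl array, a separation that 17% of all named genes also had. NDUFA6-DT, transcribed divergently from NDUFA6, measured 6.23 and 6.05 in Ctrl and 5.96 and 5.96 in rGAL1, a difference of -0.18 (SE 0.11, limma adjusted p = 0.924) that was -0.091 without Ctrl 1. Its dimmer probe set measured 4.31 and 4.19 in Ctrl and 3.81 and 4.28 in rGAL1, with overlapping arrays. NDUFB2-AS1, antisense to NDUFB2, measured 6.56 and 6.68 in Ctrl and 6.46 and 6.51 in rGAL1, a difference of -0.14 (SE 0.11) that was -0.076 without Ctrl 2. Whether these probe sets tell the strands apart is not given in the sources used here.

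The median Ctrl level was 8.23 for complex III, 7.25 for complex IV and 7.37 for complex V, and 7.77 for complex IV without its restricted forms. Levels ranged from 5.66 to 10.3 in complex III, from 3.41 to 11.46 in complex IV and from 6.70 to 8.44 in complex V. The value of 11.46 is that of the brighter COX6A1 probe set, whose target is uncertain. Probe sets differ in how strongly they bind their targets, and the values are not per transcript length, so these medians do not order the complexes by amount of transcript.

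By array, the median deviation of the 5 complex III members from each gene's 4-array mean was 0.00082 on Ctrl 1, 0.075 on Ctrl 2, -0.036 on rGAL1 1 and -0.048 on rGAL1 2. Both rGAL1 arrays were thus lower, with Ctrl 2 the farthest from the rest. For the 11 widely expressed complex IV subunits it was 0.016 and 0.021 on the Ctrl arrays and -0.016 and -0.031 on the rGAL1 arrays, again apart. For the 6 restricted forms it was -0.083 and -0.016 on the Ctrl arrays and -0.020 and 0.082 on the rGAL1 arrays, which overlap. Over all 25 members it was -0.017 and 0.030 against -0.018 and -0.021, where Ctrl 1 and the rGAL1 arrays were nearly level. All named genes had medians between -0.0059 and 0.0074 on the same arrays.

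**Figure D3:**
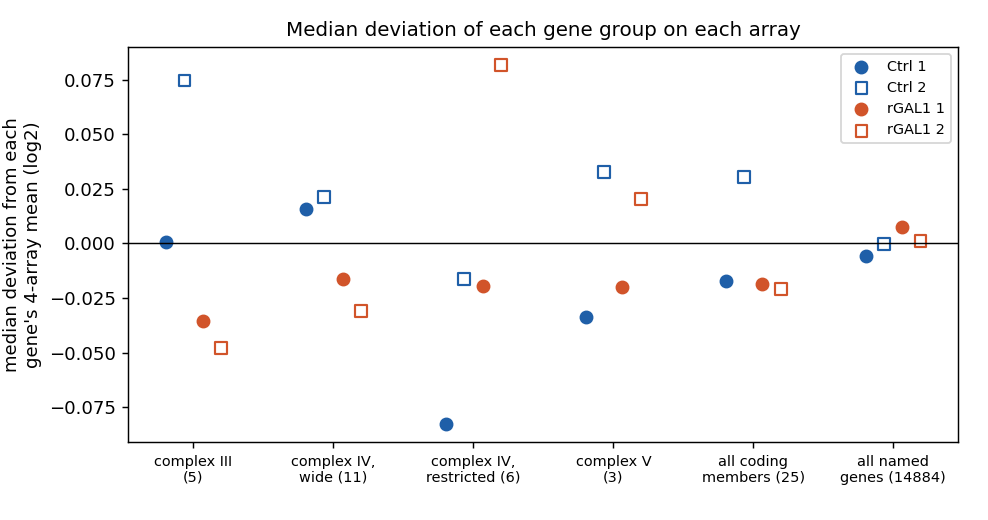
Median deviation from each gene's 4-array mean (log2, vertical axis) for each gene group on each array, with the number of genes in brackets. The Ctrl and rGAL1 arrays are apart for complex III and the widely expressed complex IV subunits and overlap for the restricted forms and complex V.

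Among related genes, 36 of 48 listed assembly factors of the complexes were measured. Their means were lower in 18 and higher in 18, with a median difference of -0.0048. Both rGAL1 arrays lay below either Ctrl array in 12 of the 36 (33.3%), against 17% of all named genes. They lay above in 7 (19.4%), against 20.2%. The only one at an unadjusted p under 0.05 was COX20, a chaperone for a mitochondrially encoded complex IV subunit. It measured 7.54 and 7.40 in Ctrl and 7.16 and 7.15 in rGAL1, and both rGAL1 arrays were lower, by a difference of -0.32 (SE 0.11). It was not called after adjustment over all probe sets (limma). Of the electron carrier and coenzyme Q genes 8 of 19 were measured, 6 with lower means, with a median of -0.053. Both rGAL1 arrays lay below either Ctrl array in 3 of the 8 (37.5%), against 17% of all named genes, and above in 0, against 20.2%. CYC1, the cytochrome c1 subunit of complex III that the symbol rule does not take, differed by -0.13 with no overlap between the groups.

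Medians were -0.022 for 11 tricarboxylic acid cycle genes (6 lower, 5 higher), -0.0012 for 17 import and cristae genes (9 lower, 8 higher) and -0.017 for 9 glycolysis and lactate genes (5 lower, 4 higher). Of 7 measured regulators of mitochondrial biogenesis, 6 had higher means, with a median of 0.049; NRF1 differed by 0.11 and YY1 by 0.079, with overlapping arrays. At an unadjusted p under 0.05, 0 genes of these 4 lists or of the electron carrier list were found in either direction (limma). Both rGAL1 arrays lay below either Ctrl array in 5 of the 11 tricarboxylic acid cycle genes and 2 of the 9 glycolysis and lactate genes. For import and cristae this was 1 of 17 and for the regulators 0 of 7, against 17% of all named genes. In the same order, both lay above in 2, 1, 3 and 2 genes, against 20.2%. The subunits encoded in mitochondrial DNA are not analysed here.

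Promoters were read for the 20 of 25 protein-coding members found in the RefSeq promoter table (GRCh38.p14), as 250 bases before and 50 after the gene start. Nuclear respiratory genes are known to be controlled by NRF-1, by ETS factors such as GABPA and by YY1, so 1 motif of each was searched on both strands: GCGCANGCG for NRF-1, CCGGAAG for ETS and AAGATGG for YY1. An NRF-1 match was found in 4 of the 20 (20%), against 11% of all 15842 protein-coding promoters. An ETS match was found in 7 (35%, against 14.2%), and a YY1 match in 3 (15%, against 6.4%). At least 1 of the 3 was found in 12 of the 20 (60%, against 27.4%), with COX6A1 and UQCRC1 holding more than 1 kind. A match is a description of the letters and not a bound site.

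**Figure D4:**
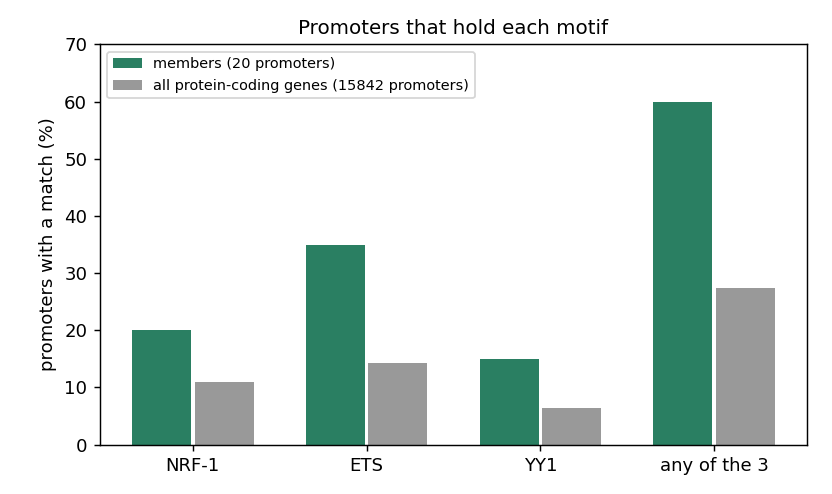
Share of promoters with a match to each motif (percent, vertical axis) among the 20 members with a promoter sequence and among all 15842 protein-coding promoters. The members' bars are higher for each motif: 20% against 11% for NRF-1, 35% against 14.2% for ETS and 15% against 6.4% for YY1.

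Of the 20, the 7 genes with both rGAL1 arrays lower all held a match. So did 2 of the 3 with both higher, ATP5MK and COX4I1, each with ETS, and 3 of the 10 whose arrays overlapped, UQCRC2 and COX7C with YY1 and COX8C with NRF-1. This split was looked at after the values were seen and has no test. It also follows the kind of subunit: the 4 tissue-restricted forms with a promoter, of which 1 held a match, all lie outside the 7. The 7 leave out UQCRB and the restricted form COX7A1, which also had both rGAL1 arrays lower but had no promoter sequence here. For the same reason COX6C is not among the 3 with both higher. COX6A1 is 1 of the 7 by its brighter probe set, whose target is uncertain. Among all named protein-coding genes with a promoter, the shares were 32.1% of 1580 genes with both rGAL1 arrays lower, 29.4% of 2124 with both higher and 28.9% of 6003 with overlap. Windows before the gene start are shown for the 7 lower genes and for 2 of the 3 higher ones, 5′ to 3′ on the gene's strand, with the match in capitals. Not every match lies in a window shown: an NRF-1 match of COX6A1 is farther upstream, and 1 match each of UQCRC1 (YY1), COX5B (ETS), ATP5MK (ETS) and COX4I1 (ETS) is not wholly before the start. They let the letters be seen beside lower values, those of UQCRC1, UQCRH, COX5B, COX6A1, COX6B1, COX8A and ATP5MJ, and beside the higher ones of ATP5MK and COX6B2.

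UQCRC1 (chr3:48609647-48609712, minus strand, NRF-1): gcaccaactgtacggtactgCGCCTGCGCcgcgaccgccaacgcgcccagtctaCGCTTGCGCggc

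UQCRH (chr1:46303632-46303678, plus strand, ETS): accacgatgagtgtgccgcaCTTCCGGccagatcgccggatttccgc

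COX5B (chr2:97646005-97646051, plus strand, ETS): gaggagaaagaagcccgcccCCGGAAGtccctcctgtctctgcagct

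COX6A1 (chr12:120438077-120438112, plus strand, ETS): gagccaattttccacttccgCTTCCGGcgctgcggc

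COX6B1 (chr19:35648291-35648322, plus strand, ETS): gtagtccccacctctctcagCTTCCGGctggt

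COX8A (chr11:63974582-63974619, plus strand, ETS): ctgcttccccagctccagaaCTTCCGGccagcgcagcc

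ATP5MJ (chr14:103921530-103921565, minus strand, NRF-1): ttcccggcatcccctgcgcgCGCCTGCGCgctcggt

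ATP5MK (chr10:103396609-103396658, minus strand, ETS on both strands, overlapping): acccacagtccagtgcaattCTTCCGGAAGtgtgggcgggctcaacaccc

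COX6B2, the member with the highest difference, held none of the 3 motifs, and its 100 bases before the start are given.

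COX6B2 (chr19:55354720-55354819, minus strand): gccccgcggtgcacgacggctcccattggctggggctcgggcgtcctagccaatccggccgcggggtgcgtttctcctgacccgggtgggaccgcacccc

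The number of arrays limits what these data can show. The larger of a member's 95% bounds in either direction had a median of 0.36 log2 units (1.28-fold), and 20 of the 25 intervals lay within 0.5 units, or 1.41-fold, of 0. The widest reached -0.57 for COX7A1 and 0.58 for COX6A2. A member's interval holds the changes that its arrays leave compatible at 95% under the moderated variance, and it is not a limit of detection. Each SE draws on the spread of all probe sets as well as its own, with 2.75 prior beside 2 residual degrees of freedom. Intervals therefore depend on the prior. With an intensity trend in it, the SE was 0.049 instead of 0.099 for the bright COX8A and 0.18 instead of 0.14 for the dim COX8C. Over all named genes, differences ranged from -0.76 to 0.88 log2 units, and 0 were called at an adjusted p under 0.05 (limma).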

How the data were processed

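RNA of 4 samples was profiled on arrays after labelling 100 ng of total RNA with biotin, per the labels' protocols. The deposited log2 values were made by the authors with RMA, which is named with limma in the submitters' processing notes; their versions were not given in the sources used here. The table held 53617 probe sets, 16098 with 1 gene symbol, 0 with several and 37519 with none, which stay unnamed. No detection call is given, and 0 sample columns were left unused. All probe sets were compared with limma 3.58.1 under R 4.3.3 (a linear model with lmFit, moderated by eBayes, no block, two-sided, Benjamini-Hochberg over all probe sets, threshold 0.05), with 2 residual and 2.75 prior degrees of freedom; the script was tested on simulated data. Intervals are 95%. Medians and counts over members have no test. Members named singly were those with the extreme differences and levels of each complex and the paralogue forms; the other members were added after their values were seen. The members and lists were chosen with earlier results of these data known. Alternatives were the replicate block, quantile normalization, median centring, a dim filter, an intensity trend, rGAL1 2 as control, all probe sets of a gene averaged and leaving out each array. Placing NDUFA4 in complex I was not run, as no probe set carries that symbol.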

Additional observations from a re-analysis of the deposited data

How the results depend on the processing

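No member and no probe set was called in the main fit or in the other fits that kept 2 arrays per group (0 in each, limma). The replicate block left 0 members called and the same medians. The replicate number was no block in the main fit because the labels name limma with no block. Deviations of same-numbered arrays had r = -0.048 over all probe sets. That value does not tell whether such arrays share a culture or batch. All 9 protein-coding members whose rGAL1 arrays lay below both Ctrl arrays, and all 4 above, kept their sign in the 4 fits without 1 array, by construction of the separation. Without 1 array the median difference ranged from -0.052 to 0.0019 over all coding members, from -0.096 to -0.040 in complex III, from -0.029 to 0.013 in complex IV and from -0.027 to 0.049 in complex V. Members below numbered 11 and above 4, noncoding included, and 13 to 16 and 5 to 8 without 1 array, where separation is easier by construction. With rGAL1 2 counted as control they numbered 6 and 7. That setting compares rGAL1 1 alone with the other arrays, and the share over all named genes was not computed for it. These counts are therefore not read as a result about the members. The median level of complex IV was 7.77 without restricted forms, by construction. Signs turned for 11 of the 27 members. With rGAL1 2 as control the difference was -0.026 for ATP5IF1, -0.16 for COX4I2, 0.011 for COX5A, 0.0072 for COX7B and -0.13 for COX7B2. It was 0.0086 for COX7A2 with median centring and -0.00096 for UQCRC2 with quantile normalization. Without 1 array the ranges were -0.027 to 0.049 for ATP5IF1, -0.067 to 0.28 for COX4I2, -0.081 to 0.013 for COX5A, -0.11 to 0.35 for COX6A2, -0.052 to 0.041 for COX7A2, -0.097 to 0.066 for COX7B, -0.056 to 0.24 for COX7B2, -0.030 to 0.088 for COX7C, -0.060 to 0.22 for COX8C, -0.035 to 0.046 for UQCRC2 and -0.056 to 0.13 for UQCRHL. Causes of these turns were not tested.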
